A study of Pavo cristatus and Gallus gallus and Meleagris gallopavo with 54 samples.

Results

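The peaks described here are the 9859 cap analysis of gene expression (CAGE) peaks of zebra finch embryonic fibroblasts that lie on neither the Z nor the W chromosome, out of 10527 peaks in the zebra finch table. The members were chosen by position alone, as all peaks not on sequence NC_045027.1 (Z, 524 peaks) or NC_045028.1 (W, 144 peaks). They were assigned by the study to 8243 nearest genes, of which 7260 carry a symbol and the others an identifier beginning with LOC. The values compared were those of 1 male and 3 female libraries.

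All 4 libraries came from primary fibroblasts of Taeniopygia guttata embryos at Hamburger-Hamilton stage 36, grown from the trunk after head, limbs, skin and internal organs had been removed. The cells were kept in DMEM with 10% FBS and harvested at passage 5, and no treatment or genetic change is listed for any of them. Each library represents a single embryo, sexed by the study from the gonads, so sex, embryo and culture cannot be told apart in any comparison of the male with the females. The values below therefore describe these 4 cultures and make no statement about the sexes, and the female libraries (female 1, 2 and 3) serve as the measure of spread. Series-wide, 54 samples of several bird species were deposited to ask how genes of the Z chromosome are expressed in males (ZZ) and females (ZW). The peaks outside Z and W include those of the mitochondrial genome and 545 peaks on unplaced scaffolds, and whether any such scaffold belongs to Z or W was not tested.

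CAGE captures the capped 5′ ends of RNA, so that a peak at a gene start marks where transcription begins, and its height counts tags from there. A gene may have several peaks, at its annotated start or elsewhere. Peaks elsewhere, as in exons, need not be starts, and the study used a classifier to sort such peaks into promoters and others. Whether single peaks away from promoters are starts was not tested here. Fibroblasts in culture are mesenchymal cells that secrete collagens and other matrix proteins and can take on contractile or skeletal features, and cultures taken from a whole trunk may hold precursors of muscle, bone, cartilage and tendon beside connective tissue cells.

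The libraries held between 9472176 and 10847915 tags, and between 90.3% and 92.0% of them fell in peaks. Levels are given as TPM, the tags of a peak scaled to the mapped tags of its library, and 1 tag was worth between 0.0922 and 0.106 TPM. The sex labels were checked on the W peaks, which are not otherwise used here. The male library had no tag at 81 of 144 W peaks and a median of 0 TPM, whereas the 3 female libraries had none at 4, 4 and 0 of them and medians of 7.60, 10.5 and 23.2 TPM. A pair of fibroblast genes was high in all 4 libraries. VIM, which encodes the intermediate filament vimentin, stood at 5638 TPM in the male and at 3282, 2736 and 3974 TPM in the females, and COL1A2, a chain of type I collagen, at 813 TPM and at 2370, 1450 and 2285 TPM.

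Male and female libraries differed from each other about as much as the female libraries did among themselves. Over the 9859 peaks, the median absolute difference in log2(TPM + 1) was 0.39 between the male and female 1, 0.42 between the male and female 2, and 0.36 between the male and female 3. Between the females it was 0.43 for females 1 and 2, 0.35 for females 1 and 3, and 0.37 for females 2 and 3. The share of peaks that differed by at least 1 log2 unit (2-fold) ran from 16.7% to 19.97% in the 3 pairs with the male and from 15.3% to 20.2% in the 3 female pairs. Pearson correlations across peaks, which are not independent replicates, were 0.83 to 0.88 and 0.85 to 0.86. No pair with the male lay outside the span of the female pairs in median difference.

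At single peaks the question was whether the male value lay outside the 3 female values by a margin. A peak was counted as beyond the female range where the male log2(TPM + 1) was at least 1 unit above the highest or below the lowest female. The male library was above that range at 217 peaks, 2.20% of those compared, and below it at 324 peaks, 3.29%. These peaks belonged to 194 and 298 genes. The 3 females spanned 1 log2 unit or more from lowest to highest at 2921 peaks (29.6%). That span is a looser measure than a margin beyond the range, so these shares cannot be set against each other. The male value lay between the lowest and the highest female at 4591 peaks (46.6%). The median difference over all peaks was -0.01. Peaks beyond the range tended to be weak, with a median level over the 4 libraries of 10.9 TPM for those higher and 15.01 TPM for those lower in the male, against 25.3 TPM over all peaks.

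**Figure D1:**
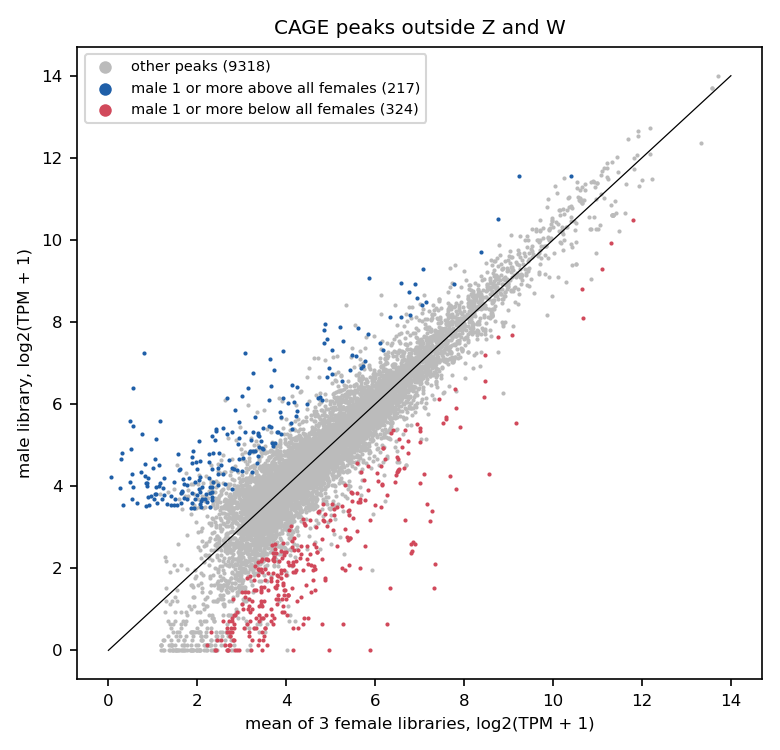
Level of each CAGE peak outside Z and W in the male library (vertical axis) against the mean of the 3 female libraries (horizontal axis), both as log2(TPM + 1), 1 point a peak, with the line of equal values. The 217 blue peaks lie at least 1 unit above every female and the 324 red peaks at least 1 unit below, and most of both are weak.

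A limma fit over all 10527 peaks, which borrows the spread of the 3 females across peaks, called 8 of the 9859 peaks at an adjusted p (Benjamini-Hochberg) under 0.05. The male library was higher at 1 of them (0.0101% of the peaks) and lower at 7 (0.0710%). At an unadjusted p under 0.05 the counts were 231 higher and 386 lower. A share of about 0.05 of the 9859 peaks would be expected under that unadjusted limit without any difference, so those counts are not read as results. With a single male the fit compares these libraries and not the sexes, and an exact permutation of 1 library against 3 cannot give a p below 0.25 for any peak. The 8 calls are fragile: no peak was called when female 2 or when female 3 was left out, nor by limma without a mean-variance trend, nor by edgeR on the recovered tags, where the adjusted p of the 8 peaks lay between 0.0565 and 0.0738.

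At 7 of the 8 called peaks the male was low or nearly silent while the 3 females were much higher and closer to each other. Close female values follow in part from the call, because the spread in the fit comes from the females alone. The gene with a symbol among them is ADAMTSL2, which encodes a secreted glycoprotein of the microfibrils around cells. Its promoter peak (NC_045015.1, 7606916 to 7607112, plus strand) had 18.1 TPM in the male and 199, 235 and 183 TPM in the females, 206 ± 26.4 TPM (SD, n = 3). The difference was -3.43 ± 0.28 (limma SE, log2 scale; adjusted p = 0.0289). The male was 11.4-fold below the female mean, and no female came near it.

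Of the other 7 called peaks, 4 stood together on sequence NC_044999.1, within a run of genes known only by LOC identifiers. At the start of LOC100226365 (45875346 to 45875605, minus strand) the male had 18.8 TPM and the females 303, 451 and 389 TPM (-4.25 ± 0.32 log2, limma adjusted p = 0.0235). LOC116807702 (45955595 to 45955750, minus strand) had 1.84 TPM against 212, 118 and 159 TPM (-5.81 ± 0.40, limma adjusted p = 0.0219). LOC100224417 (45834003 to 45834215, plus strand) had 14.3 TPM against 234, 247 and 197 TPM (-3.89 ± 0.27, limma adjusted p = 0.0219). In each of these the male lay far below all 3 females. The peak at 45954451 to 45954766, annotated as intergenic and 3041 bases before LOC100224416, had 3.32 TPM against 216, 125 and 160 TPM (-5.24 ± 0.38, limma adjusted p = 0.0235). It lies close to that of LOC116807702, on the other strand, and in each female the levels of the pair were close.

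The stretch of NC_044999.1 from 45793368 to 45958073 held 37 peaks of 31 LOC genes, and its peaks went both ways. The stretch was drawn around the 4 called peaks after they were seen, so counts within it carry no test. The male was at least 1 log2 unit below the females at 8 of the 37 peaks, the 4 calls among them, against 3.29% of all 9859 peaks. It was above them at 3, against 2.20% of all peaks, and neither at 26. The females themselves spanned 1 log2 unit or more at 17, against 29.6% of all peaks. LOC115493503, for instance, stood at 485 TPM in the male and at 125, 195 and 67.3 TPM in the females. LOC100229197 was high in female 1 alone, at 402 TPM against 3.08 and 2.22 TPM in females 2 and 3 and 3.13 TPM in the male. LOC115493338 was low in female 3 alone, at 6.95 TPM against 235 and 186 TPM in females 1 and 2 and 400 TPM in the male. Summed over the 37 peaks, the male had 12482 TPM and the females 12409, 9261 and 7823 TPM, so the male was not low over the stretch as a whole. These examples were chosen after their values were seen. Whether tags were shared among near-identical copies was not tested, so values of single genes of the stretch are uncertain.

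The remaining calls were also at LOC genes. On NC_045013.1, LOC100225057 (373930 to 374016) had 2.86 TPM in the male and 40.9, 39.5 and 36.9 TPM in the females (-3.38 ± 0.28, limma adjusted p = 0.0305). LOC116808957 on the same sequence (412723 to 412832) had 3.04 TPM against 39.2, 38.3 and 34.6 TPM (-3.24 ± 0.28, limma adjusted p = 0.0370). The values of this pair matched each other within a few TPM in each library. The call in the other direction was a wide peak just before LOC116807671 (scaffold NW_022611631.1, 126573 to 127286). It had 236 TPM in the male and 37.1, 35.8 and 35.7 TPM in the females (2.67 log2). Its deposited distance of 747 bases runs to its far edge. Its near edge lies beside the peak at the gene start (126256 to 126548), which had 1226 TPM in the male against 2013, 2079 and 1442 TPM. The gene has 12 peaks, and the strongest of the other 11 (125223 to 125554), past its start, had 1505 TPM in the male against 2034, 2099 and 1699 TPM. The higher level of the male was thus found at that upstream peak and not at the main peak of the gene.

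**Figure D2:**
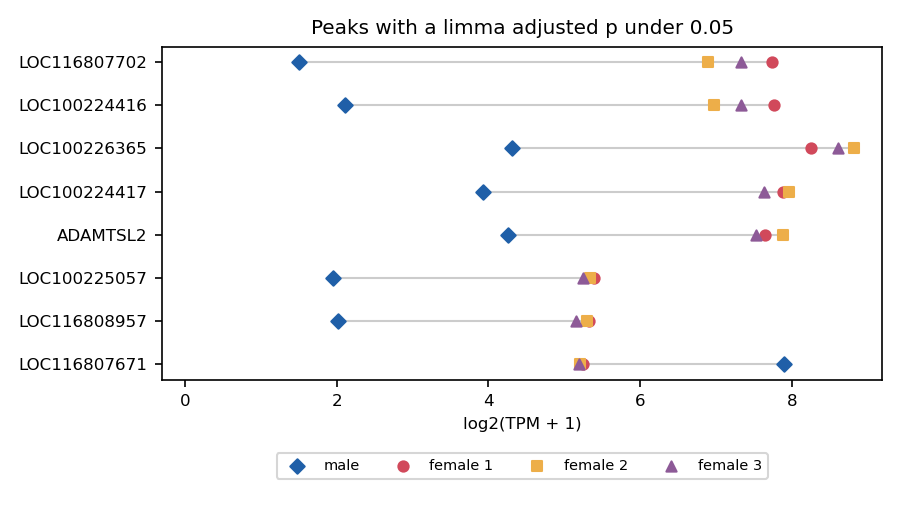
Level, as log2(TPM + 1), of the 8 peaks with a limma adjusted p under 0.05 in each library (blue diamond, male; red circle, female 1; yellow square, female 2; purple triangle, female 3), named by nearest gene. In 7 peaks the male lies far left of 3 close female values, and at LOC116807671 it lies to their right. Close female values follow in part from the fit, whose spread comes from the females alone.

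The 15 largest differences above the females, among genes with a symbol and a mean of at least 10 TPM, were at genes of varied roles. None of the 15 passed the limma test, and the females differed widely at most of them. PRG4 encodes lubricin, the proteoglycan that lubricates joint surfaces. Its strongest peak, in exon 5 (NC_045007.1, 24443237 to 24443623), had 150 TPM in the male and 0.211, 0 and 3.43 TPM in the females (6.43 log2, limma adjusted p = 0.308). At its promoter peak the male had 24.5 TPM and the females 0, 0 and 0.834 TPM, so the difference was present at the start of the gene as well.

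Several of the 15 encode secreted proteins. IGFBP4, which binds insulin-like growth factors, stood at 151 TPM in the male and at 0.950, 31.6 and 8.15 TPM in the females. OSTN, which encodes the peptide osteocrin, stood at 113 TPM against 6.65, 52.1 and 4.72 TPM. SFRP4, a secreted inhibitor of WNT ligands, stood at 39.8 TPM against 0.950, 14.7 and 3.98 TPM. In all 3 genes the male was the highest library, and female 2 was the highest female. MFAP5, a component of microfibrils, was more even among the females, at 221 TPM in the male and 17.5, 51.7 and 23.2 TPM in the females (2.95 ± 0.64 log2, limma adjusted p = 0.401).

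Receptors and signalling proteins formed a second group. CHRNA4, a subunit of nicotinic acetylcholine receptors, stood at 47.3 TPM in the male and at 0, 1.33 and 0.185 TPM in the females. RET, the receptor kinase for ligands of the GDNF family, stood at 72.5 TPM against 0.739, 32.2 and 7.78 TPM, and IL17REL, a relative of the interleukin 17 receptors, at 136 TPM against 0.845, 37.7 and 26.1 TPM. AKAP12, a scaffold protein that binds protein kinase A, stood at 156 TPM against 2.74, 30.8 and 29.2 TPM. Female 1 was the lowest library in the last 3 and had no tag of CHRNA4. EBF2, a transcription factor of mesenchymal precursors, stood at 34.5 TPM against 0.106, 5.24 and 0.370 TPM.

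Genes of lipid metabolism were also among the 15. PLPP3, which dephosphorylates lysophosphatidic acid and related lipids, was the strongest of all 15 at 534 TPM in the male against 17.9, 73.6 and 140 TPM in the females. G0S2, an inhibitor of the triglyceride lipase ATGL, stood at 33.3 TPM against 0.211, 2.98 and 13.1 TPM. DHCR7, which catalyses the last step of cholesterol synthesis, stood at 40.8 TPM against 10.5, 2.67 and 2.69 TPM. The other 2 peaks lay in an intron of SYNPO, which encodes an actin-binding protein. The peak assigned to SYNPO had 248 TPM against 5.17, 45.8 and 85.1 TPM, and the peak whose nearest gene is MYOZ3 had 36.5 TPM against 0.528, 6.37 and 10.4 TPM, so both kept the order male, female 3, female 2, female 1.

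Of the 15 genes most below the females, several belong to muscle, bone or matrix. ACTC1 encodes cardiac alpha actin, which is also made in embryonic muscle. It stood at 1.84 TPM in the male and at 130, 22.1 and 176 TPM in the females (-4.83 log2, limma adjusted p = 0.461). IBSP, which encodes bone sialoprotein, had 2.86 TPM in the male and 1134, 2.98 and 48.4 TPM in the females, so that female 2 was as low as the male. COL26A1, a collagen gene, stood at 9.59 TPM against 428, 67.0 and 126 TPM, and SPON2, which encodes a secreted matrix protein of the spondin family, at 3.04 TPM against 105, 15.7 and 70.0 TPM. FAT3, an atypical cadherin, stood at 0.461 TPM against 35.1, 6.88 and 18.8 TPM. Female 1 was the highest library for the last 4 of these genes.

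Enzymes and regulators made up another part of the 15. KHDRBS3, an RNA-binding protein, had 0.553 TPM in the male and 45.3, 16.1 and 26.7 TPM in the females, the most even females of the group (-4.17 ± 0.63 log2, limma adjusted p = 0.186). FCSK, which encodes fucose kinase, had no tag in the male and 34.5, 9.45 and 13.98 TPM in the females, at least 69.9-fold above the male when the male is set at 3 tags. The peak of CERS1, a ceramide synthase, had no tag in the male either, with 244, 9.65 and 0.648 TPM in the females. The RNA of FCSK and CERS1, given below, did not show these differences. One of several peaks of ADK, which encodes adenosine kinase, had 0.737 TPM against 54.4, 7.50 and 23.3 TPM. The strongest other peak assigned to ADK had 42.7 TPM in the male and 47.8, 42.2 and 58.2 TPM in the females, so the male lay within the females there. That peak lies on the plus strand, whereas the other promoter peaks of ADK described here lie on the minus strand. Whether it is a start of ADK was not tested. Another promoter peak of ADK was below all 3 females by less, at 18.3 TPM against 30.7, 21.8 and 25.9 TPM.

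Other genes of the 15 also had more than 1 peak. The peak of SFXN2, a mitochondrial carrier, that lies 7 bases before an annotated start had 0.553 TPM against 7.39, 212 and 260 TPM. Its neighbour at another start had 36.9 TPM against 43.3, 52.98 and 33.4 TPM. The peak whose nearest gene is HACD2 lies in exon 30 of MYLK and had 0.553 TPM against 128, 5.03 and 74.5 TPM, while the promoter peak of HACD2 was lower in the male by less, at 20.4 TPM against 34.1, 32.3 and 43.7 TPM (-0.81 log2, limma adjusted p = 0.625). The intergenic peak 5852 bases before MED12, a subunit of the Mediator complex, had no tag in the male and 223, 28.3 and 30.01 TPM in the females, at least 340-fold above the male at 3 tags. The promoter peak of MED12 itself was level, at 18.5 TPM against 19.5, 13.4 and 17.2 TPM. The last 3 of the 15 were intergenic peaks with LRRC4C, CDCA7 and GRIK2 as nearest genes, described with the peaks away from promoters.

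**Figure D3:**
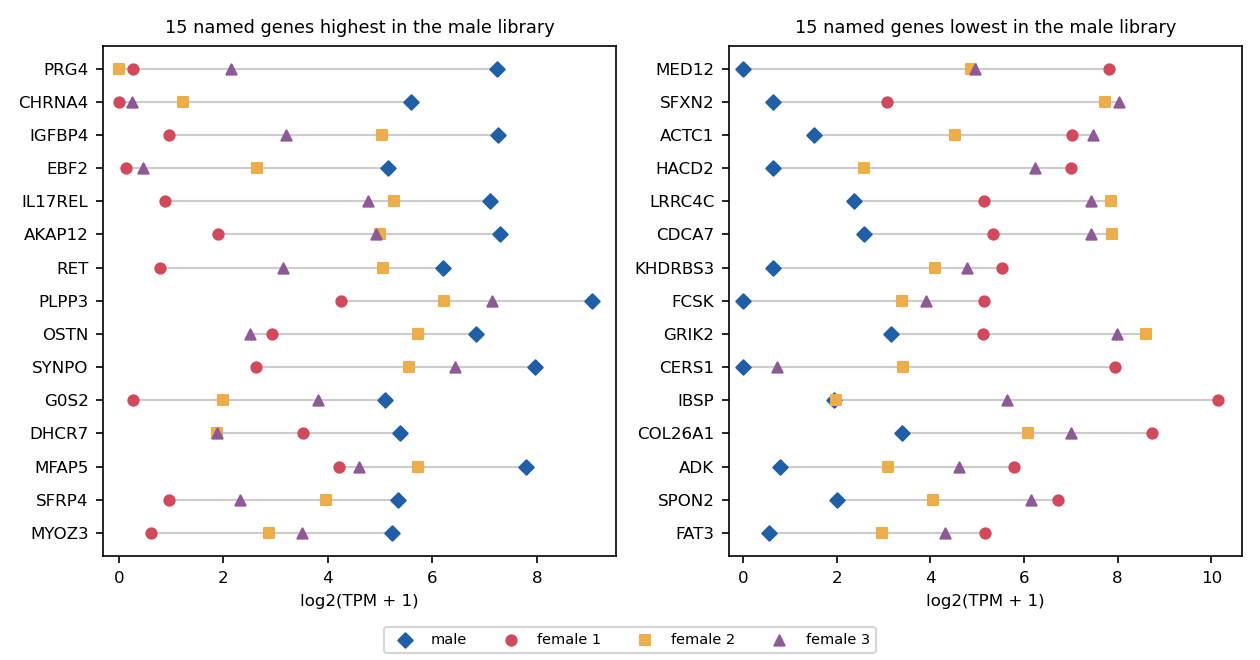
Level, as log2(TPM + 1), of the peaks of the 15 named genes most above (left) and the 15 most below (right) the females in the male library, among peaks of at least 10 TPM on average, with 1 symbol a library (blue diamond, male; red circle, female 1; yellow square, female 2; purple triangle, female 3). The male is outside the female values by construction, and the female values themselves are widely spread in most genes, as in IBSP, where they run from 2.98 to 1134 TPM.

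Gene lists were then described by the peak of highest mean of each gene. Over all 8243 genes the male was at least 1 log2 unit above the female range at 2.03% and below it at 2.78%, and it was above all 3 females by any margin at 26.1% and below all 3 at 27.1%. The median difference over all genes was 0.00. In the list counts below, no member of any list was called by limma.

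The male was the lowest library at most genes induced when amino acids are scarce or the integrated stress response is active. Under that response the factor ATF4 turns on genes that make, import and activate amino acids. Of 27 genes measured, 8 lay at least 1 log2 unit below the female range and none above it, and the male was below all 3 females at 23 and above them at none. The median difference was -0.98, and it lay between -1.12 and -0.94 when each female was left out in turn.

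The 8 genes below the range have different roles. CHAC1, which degrades glutathione, stood at 8.11 TPM in the male and at 72.2, 111 and 130 TPM in the females (-3.49 log2, limma adjusted p = 0.0893). PHGDH, the entry enzyme of serine synthesis, stood at 10.3 TPM against 54.2, 134 and 44.5 TPM. ALDH1L2, a mitochondrial enzyme of folate metabolism, stood at 1.75 TPM against 11.5, 13.96 and 18.8 TPM. STC2, which encodes the secreted glycoprotein stanniocalcin 2, was weak in all libraries, at 0.830 TPM against 6.65, 8.73 and 20.7 TPM. The other 4 were ASNS, ATF3, SESN2 and SLC7A5. Asparagine synthetase, encoded by ASNS, stood at 7.19 TPM against 30.7, 24.4 and 32.7 TPM, with no overlap between the male and the females. ATF4 itself did not follow at its strongest peak, at 144 TPM in the male and 181, 60.5 and 40.9 TPM in the females. At a weaker peak of ATF4 the male had 3.27 and the female mean was 4.18, as log2(TPM + 1).

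Contractile genes of smooth muscle and myofibroblasts were lower in the male at 12 of 20 genes, counting those below all 3 females, with a median difference of -0.66. Of the 20, 3 lay at least 1 log2 unit below the female range and none above it. ACTA2, smooth muscle alpha actin, stood at 621 TPM in the male and at 2325, 2249 and 2036 TPM in the females (-1.82 ± 0.22 log2, limma adjusted p = 0.0940). CNN1, which encodes calponin, stood at 4.24 TPM against 31.1, 18.1 and 27.7 TPM. MYLK, the myosin light chain kinase of smooth muscle, stood at 5.62 TPM against 33.6, 46.7 and 48.3 TPM. The female range was under 1 log2 unit in all 3, so the females were much more alike here than at the genes most different in the male. Of the list, 3 genes were above all 3 females in the male, namely FHL1, TPM4 and TNS1 (named after their values were seen).

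**Figure D4:**
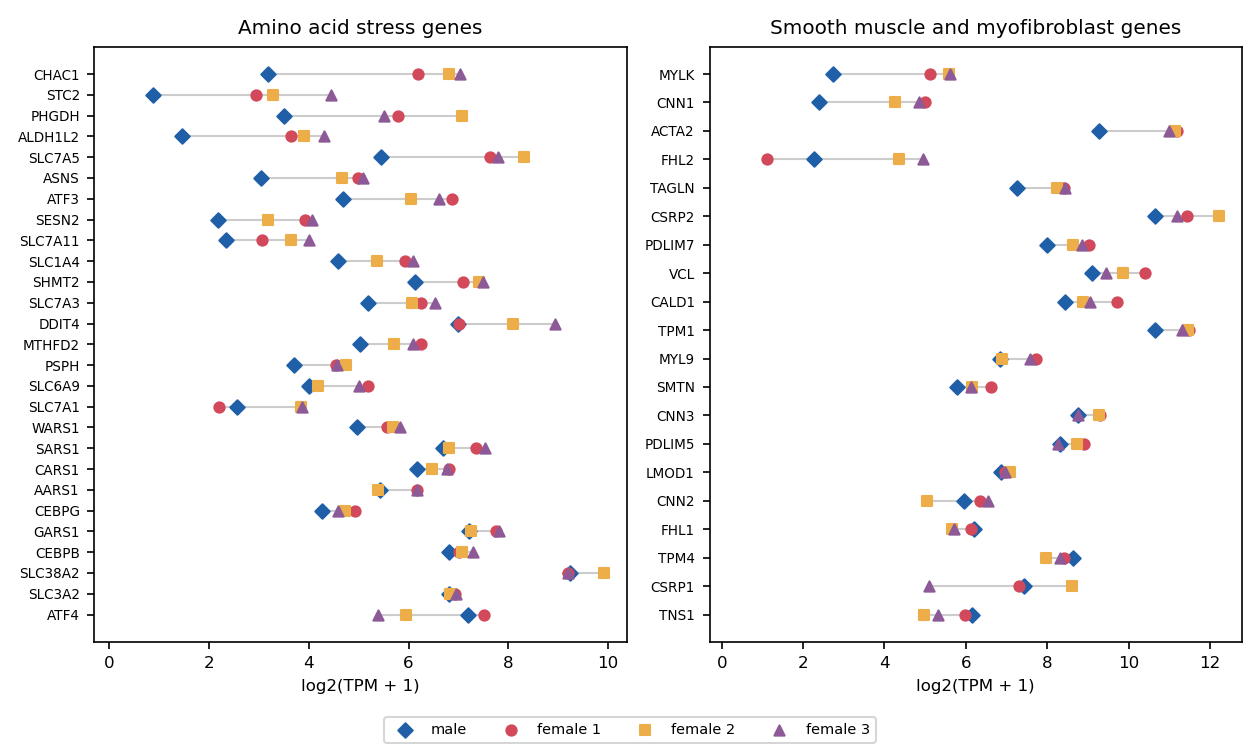
Level, as log2(TPM + 1), in each library of the 27 measured genes of the amino acid stress list (left) and the 20 of the smooth muscle and myofibroblast list (right), ordered by the difference between the male and the female mean. The male (blue diamond) is the lowest library at 23 of the 27 and at 12 of the 20 genes.

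Skeletal muscle genes were lowest in the male but also the most uneven among the females. Of 44 genes in the list, 17 were measured, and all 17 had a female range of 1 log2 unit or more. Their levels summed to 14.9 TPM in the male and to 179, 44.8 and 851 TPM in the females. The study kept only peaks that reached 10 TPM in at least 1 library, so genes high in female 3 alone were kept. Low male values and wide female ranges in this list partly follow from that filter. The same applies to other lists led by 1 female. In reverse, the peaks given for PRG4, CHRNA4, EBF2, ADAMTS15, FBN3, FSTL3, DLL4, FGF16 and GAP43 reached 10 TPM in the male alone. Their low female values partly follow from the filter. Without female 3 the median difference of the skeletal muscle list was -0.55, against -2.19 with all 3 females. TNNI1, a slow troponin, stood at 0 TPM in the male and at 3.59, 1.03 and 82.1 TPM in the females, and TNNC1, a troponin of slow and cardiac muscle, at 0 TPM and at 8.87, 1.03 and 19.4 TPM. The master regulators of muscle cells, MYOD1 and MYOG, both stood at 0 TPM in the male and at 14.5 and 12.8 TPM in female 3 (chosen after their values were seen). These values set the male beside 1 female only, the one with the highest sum for the list. The median departure of the list from the mean of the 4 libraries was -1.64 in the male, -0.30 and -1.24 in females 1 and 2, and 2.93 in female 3. In these bulk cultures, fewer cells of a type and less RNA per cell cannot be told apart.

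Bone and tendon genes set female 1 apart in the same way. The 11 measured genes summed to 599 TPM in the male and to 3717, 988 and 1062 TPM in the females, and the median difference was -1.41 with all 3 females and -0.63 without female 1. SP7, the transcription factor of bone-forming cells, stood at 2.30 TPM in the male and at 145, 6.26 and 12.8 TPM in the females, and was the only gene of the list beyond the range. Genes outside the naming rule showed the same library, such as PHEX at 113 TPM in female 1 against 1.85 and 1.02 TPM in females 2 and 3. MKX, a tendon regulator of the list, did not, and stood at 118 TPM in the male and in female 2, at 19.95 TPM in female 1 and at 3.70 TPM in female 3. Of 10 cartilage genes, the male was below all 3 females at 8 and above them at 1, with a median difference of -1.28. The females spanned 1 log2 unit or more at 8 of the 10 genes. The list summed to 598 TPM in the male and to 2093, 1165 and 648 TPM in the females, so female 3 was close to the male in this sum. PRG4 alone gave 150 TPM of the male sum and 3.43 TPM of that of female 3. The median departure of the list from the mean of the 4 libraries was -0.96 in the male and 0.86, 0.08 and -0.27 in the females. In this list FGFR3 was below the range, at 2.86 TPM against 24.8, 9.96 and 10.2 TPM, and PRG4 above it. SOX9, the regulator of cartilage cells, stood at 13.2 TPM against 93.6, 46.5 and 19.2 TPM.

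Collagen and matrix genes were mixed. Of 37 genes, 5 lay below and 2 above the female range by 1 log2 unit, and the median difference was -0.47, with 13 genes below and 6 above all 3 females. Without female 3 the median was -0.20. The genes below the range encode COL12A1, COL16A1, SPARC, LUM and THBS2. COL12A1, a collagen on the surface of collagen I fibrils, stood at 275 TPM in the male and at 2851, 877 and 1711 TPM in the females. LUM, the small proteoglycan lumican, stood at 449 TPM against 1272, 2199 and 1514 TPM. Above the range were MFAP5 and FBN3, a fibrillin, which stood at 11.9 TPM against 0.106, 0.513 and 4.07 TPM. The 37 genes summed to 15011 TPM in the male and to 30804, 21082 and 32167 TPM in the females. Of 15 basement membrane genes only COL15A1 lay beyond the range, at 3.23 TPM against 11.0, 28.5 and 14.2 TPM. Among 18 proteases and inhibitors, ADAMTS15 was above the range, at 18.7 TPM against 0, 0.205 and 1.48 TPM, and MMP16, a membrane-bound metalloproteinase, below it, at 44.6 TPM against 151, 113 and 104 TPM.

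General fibroblast genes went both ways. Of 15 measured, 7 stood above and 3 below all 3 females, and the median difference was 0.47. Their levels summed to 13872 TPM in the male and to 19822, 13462 and 19029 TPM in the females. LUM, given above, was the gene of the list below the range by 1 log2 unit, and PDGFRA the gene above it. PDGFRA, the receptor for platelet-derived growth factor found on most mesenchymal cells, stood at 85.7 TPM in the male and at 0.422, 33.0 and 41.1 TPM in the females, so that female 1 was the library that stood apart. The difference of PDGFRA was 2.78 log2 units over the 3 females and 1.20 without female 1.

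Regulators of position and lineage differed at several genes. Of 35 measured, 4 lay above and 1 below the female range. OSR2, a zinc finger factor of limb and palate mesenchyme, stood at 192 TPM in the male and at 11.6, 47.9 and 43.5 TPM in the females. TBX18 stood at 20.5 TPM against 1.48, 4.31 and 3.80 TPM. TBX5, the forelimb factor, was represented by an intergenic peak 3029 bases before the gene, at 17.0 TPM against 1.90, 1.85 and 2.87 TPM. These T-box peaks reached the study's limit of 10 TPM in the male alone, so low values in all 3 females partly follow from that filter. Among the 35 genes, the females spanned 1 log2 unit or more at 27. ALX1, a homeobox factor of craniofacial mesenchyme, was below the range, at 2.21 TPM against 6.12, 12.1 and 27.4 TPM. None of the 11 HOX genes lay beyond the range. HOXA7, expressed in the trunk, was even at 65.1 TPM against 79.8, 79.6 and 67.8 TPM, and HOXC6 stood at 119 TPM against 59.4, 185 and 66.8 TPM.

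Signalling genes of each pathway went both ways. In the list for TGF-beta and BMP, 3 of 42 genes lay above and 3 below the range. ID4, an inhibitor of helix-loop-helix factors that BMPs induce, was the most even of them among the females, at 630 TPM in the male and 119, 153 and 133 TPM in the females (2.22 ± 0.27 log2, limma adjusted p = 0.0956). GDF10, a BMP-related ligand, stood at 232 TPM against 15.7, 71.9 and 93.8 TPM, and FSTL3, which binds activin, at 16.0 TPM against 0.528, 1.03 and 6.02 TPM. In the other direction BAMBI, a decoy receptor, stood at 15.9 TPM against 229, 69.9 and 127 TPM. The other genes below the range were the ligands TGFB2 and BMP7.

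In the WNT list 2 of 33 genes lay above and 2 below the range. The inhibitors SFRP1 (33.9 TPM against 1.27, 12.3 and 3.80 TPM) and SFRP4 were above. TCF7, a transcription factor of the pathway, was below, at 3.23 TPM against 55.2, 9.24 and 21.3 TPM, as was APCDD1, a membrane inhibitor of WNT, at 0.184 TPM against 11.3, 1.54 and 4.17 TPM. Of 25 hedgehog, notch and FGF genes, 4 were above and FGFR3 below. SPRY1, a feedback inhibitor of FGF signals, stood at 105 TPM against 21.5, 36.6 and 39.2 TPM. FGF16 stood at 14.9 TPM against 0.845, 2.05 and 0.926 TPM, and the notch ligand DLL4 at 13.5 TPM against 0.528, 1.95 and 5.83 TPM. In the list for IGF, PDGF and retinoic acid, IGFBP4 and PDGFRA were above and IGFBP7 and PDGFD below, out of 20 genes. PDGFD, a ligand of PDGF receptors, stood at 14.01 TPM against 104, 40.3 and 42.9 TPM, and IGFBP7 at 48.4 TPM against 189, 129 and 287 TPM.

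Ribosomal protein genes showed a small but widespread difference. The male was above all 3 females at 49 of 61 genes and below them at 2, with a median difference of 0.47, and no gene reached 1 log2 unit beyond the range. RPS20 stood at 6431 TPM in the male and at 3845, 3900 and 3828 TPM in the females, and RPLP1 at 5949 TPM against 3531, 4193 and 3915 TPM. RPS2, named after its values were seen, had the lowest difference of the list, at 152 TPM in the male and 772, 994 and 105 TPM in the females. Together the 61 genes took 115452 TPM of the male library and 82082, 90092 and 82340 TPM of the females. Genes of the respiratory chain were higher by less (median 0.30, 24 of 51 above all 3 females), with NDUFA13, a subunit of complex I, as the only gene beyond the range, at 118 TPM against 56.2, 45.6 and 48.9 TPM.

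Cholesterol synthesis genes leaned the same way, with 13 of 17 above all 3 females, none below them all, and a median difference of 0.74. DHCR7, described above among the largest differences, lay beyond the range. Of 31 genes of glycolysis and hypoxia, PGK1, a glycolytic kinase, lay above the range at 179 TPM against 66.0, 58.1 and 82.1 TPM. The lactate carriers SLC16A1 (13.2 TPM against 41.2, 28.4 and 69.1 TPM) and SLC16A3 (38.5 TPM against 85.1, 78.4 and 79.6 TPM) lay below it, as did P4HA1, a collagen prolyl hydroxylase, at 199 TPM against 416, 400 and 482 TPM. The glycolysis and hypoxia list as a whole had a median difference of -0.16.

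Cell cycle genes separated female 2 and not the male. Of 42 mitosis genes none lay beyond the female range, and the male was above all 3 females at 12 and below them at none. Their median departure from the mean of the 4 libraries was 0.50 in the male, 0.68 in female 1, -1.0003 in female 2 and -0.12 in female 3. The median difference of the list was 0.66, and 0.21 without female 2. CKS1B, a subunit of cyclin-dependent kinases, stood at 726 TPM in the male and at 584, 282 and 348 TPM in the females. The second gene chosen by level, ESPL1, was represented by an intergenic peak 21955 bases from the gene, at 389 TPM against 336, 359 and 335 TPM. Of 30 DNA replication genes none lay beyond the range either, and PCNA, the sliding clamp, stood at 342 TPM against 411, 201 and 273 TPM.

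Among stress and early response lists few genes were beyond the range. SOCS3, which inhibits cytokine signals, stood at 46.6 TPM in the male and at 7.92, 8.01 and 4.54 TPM in the females (2.64 ± 0.47 log2, limma adjusted p = 0.279). It was the only one of 15 innate immunity genes beyond the range. DUSP1, a phosphatase of MAP kinases, stood at 27.9 TPM against 11.3, 7.91 and 7.78 TPM, and ZFP36L1, which destabilises messenger RNAs, at 837 TPM against 274, 387 and 353 TPM. The third of 21 immediate early genes beyond the range was ATF3, at 24.5 TPM against 117, 65.3 and 96.5 TPM. XBP1, a transcription factor of the unfolded protein response, was below the range at 205 TPM against 518, 524 and 567 TPM, the only one of 24 endoplasmic reticulum genes that far below. Over those 24 genes the male was below all 3 females at 16 and above them at 1, with a median difference of -0.34. HSPB8, a small heat shock protein, stood at 41.7 TPM against 89.6, 126 and 184 TPM, and of 18 p53 genes GDF15 (34.7 TPM against 104, 83.4 and 91.1 TPM) and TP53INP1 (29.6 TPM against 73.2, 75.4 and 64.6 TPM) were below.

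Markers of other cell types were little represented. Peaks were present for 1 of 18 endothelial, 3 of 24 epithelial and mesothelial, 3 of 22 blood and macrophage and 6 of 23 neural genes. GAP43, a growth cone protein, was the only one of them beyond the range (13.4 TPM in the male against 3.27, 2.98 and 5.93 TPM). Of the 6 neural genes the male was above all 3 females at GAP43 alone and below them at 2, with a median difference of -0.71. The 6 genes summed to 148 TPM in the male and to 66.6, 770 and 276 TPM in the females. The 3 blood genes summed to 21.7 TPM in the male and to 15.6, 121 and 131 TPM in the females, led by CD74, the invariant chain of MHC class II, at 16.7 TPM against 12.7, 87.1 and 114 TPM. The 3 epithelial and mesothelial genes summed to 22.2 TPM in the male and 10.3, 10.8 and 90.1 TPM in the females, with WT1 at 1.47 TPM against 0.211, 0.205 and 36.1 TPM. The endothelial gene was ERG, at 59.6 TPM against 23.96, 52.0 and 29.2 TPM. GPNMB of the macrophage list stood at 4.89 TPM against 2.53, 28.9 and 6.21 TPM, and LRRN4 of the mesothelial list at 19.5 TPM against 10.1, 10.6 and 37.3 TPM. Of 35 genes of sex steroids and the gonad, 6 were measured and none lay beyond the range, with the progesterone receptor gene PGR at 29.0 TPM against 25.9, 46.9 and 56.0 TPM. The part of these cells, and of the muscle and bone genes above, in the other differences was not tested.

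**Figure D5:**
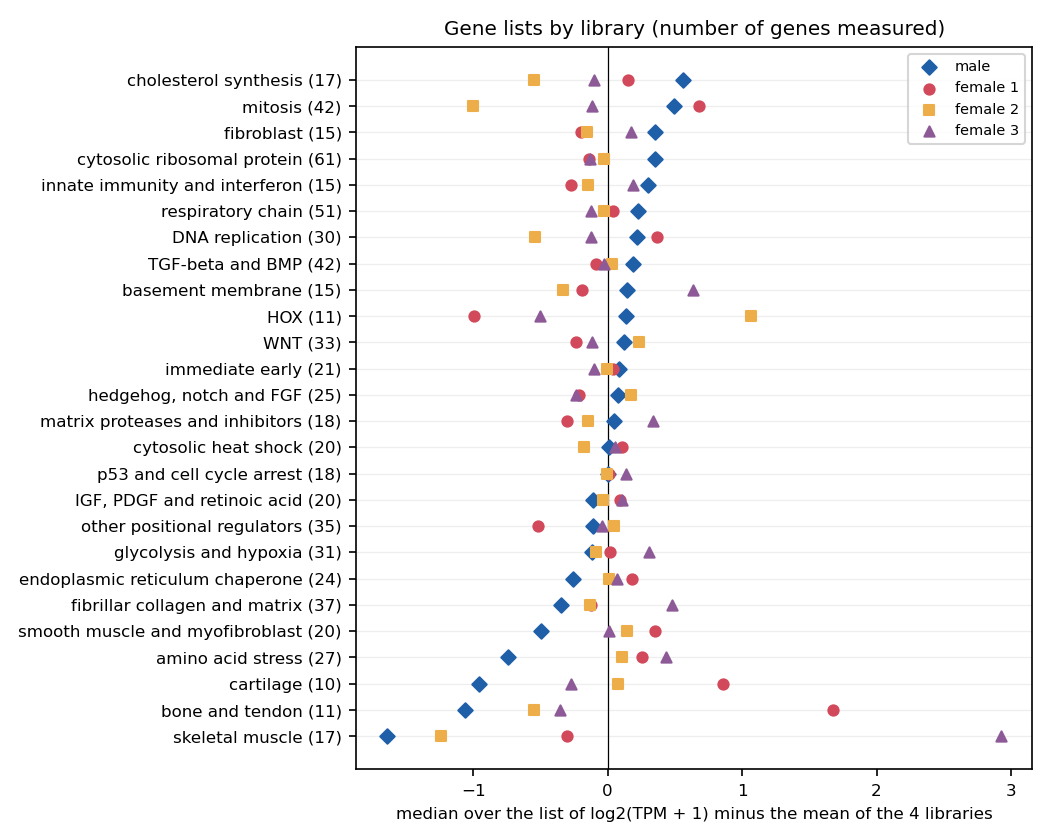
Median over the genes of each list of the log2(TPM + 1) of a library minus the mean of the 4 libraries, for lists with at least 10 measured genes (number in brackets), with 1 symbol a library. The male (blue diamond) is the lowest library for amino acid stress (-0.74) and for muscle and bone, where female 3 (2.93) and female 1 (1.68) stand far to the right.

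The spread among the females was itself large at single genes. Of the 8 named genes with the widest female range, IBSP came first and CERS1 was another. TUSC3, by a peak in its intron 6, had 319 TPM in female 3 and 0.950, 0.205 and 0.0922 TPM in female 1, female 2 and the male. POSTN, which encodes the matrix protein periostin, stood at 569 TPM in female 3 and at 8.87 and 1.85 TPM in females 1 and 2, with the male between them at 20.6 TPM. SMPD3, a sphingomyelinase of bone and cartilage, stood at 161 TPM in female 1 and at 0.103, 0.463 and 0 TPM in the other 3 libraries. PPP1R14C, an inhibitor of protein phosphatase 1, and an intergenic peak near PRKX were high in female 3, at 149 and 145 TPM, and at no more than 2.05 TPM in any other library. LSP1, a leukocyte and fibroblast protein, stood at 125 TPM in female 3, 30.9 TPM in the male, 6.26 TPM in female 2 and 0.211 TPM in female 1. The female with the extreme value was female 3 or female 1 in all 8.

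Along the genome the male library was level. On the 30 sequences with an NC name and at least 20 peaks, the median difference between the male and the females ran from -0.10 to 0.24, and no sequence passed 0.3 in either direction. The share of peaks beyond the female range ran from 0.730% to 9.09% of a sequence. In the same sequences the median departure of a library from the mean of the 4 reached -0.32 in female 2, against -0.07 to 0.18 in the male. Unplaced scaffolds, of which 10 had at least 20 peaks, were less even, with medians from -0.59 to 0.27. Peaks on scaffolds were beyond the range about as often as the others, 1.83% above and 3.30% below against 2.22% and 3.29%.

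Peaks away from promoters were less even than promoter peaks, in the male and among the females alike. Of 9013 peaks within 3 kb of an annotated start, the male was above the range at 178 (1.97%) and below it at 257 (2.85%), and the females spanned 1 log2 unit or more at 26.7%. Of the 846 peaks in introns, exons, untranslated regions and intergenic sequence, it was above at 39 (4.61%) and below at 67 (7.92%), and the females spanned 1 log2 unit at 61.3%. Intronic peaks were the class with the largest share below the range, 25 of 153 (16.3%), and exonic peaks the class with the largest share above, 18 of 250 (7.20%). Of the exonic 18, 7 were peaks of PRG4.

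Several of the peaks away from promoters lay on different sequences and yet had almost the same values in each library. Complete linkage of the 164 such peaks with at least 10 TPM on average and a female range of at least 1.5 log2 units, at a distance of 0.5 log2 units in every library, gave 4 groups with at least 4 peaks, 21 peaks in all. Only groups on at least 3 sequences were kept, so the near-equal values and the spread over sequences both follow from the rule. This grouping was made after the values were seen and carries no test. A group of 4 intergenic peaks, with LRRC4C, CDCA7, LOC115493418 and LOC115493215 as nearest genes on 4 sequences, had 4.15 to 5.25 TPM in the male, 34.6 to 39.6 TPM in female 1, 229 to 237 TPM in female 2 and 162 to 172 TPM in female 3. The group of 8 on 7 sequences had 0.369 to 0.737 TPM in the male, 1.90 to 2.53 and 5.95 to 8.21 TPM in females 1 and 2 and 51.3 to 60.0 TPM in female 3. Another 4 peaks followed nearly the same course. The last group of 5, which includes peaks in exons of FN1 and CALD1, was not beyond the range in the male (23.97 to 34.0 TPM against a female span of 11.0 to 49.8 TPM). Of the 21 peaks, 11 were below the range in the male, and whether their tags come from copies of 1 repeated sequence was not tested, so they should not be read as 11 separate observations. The intergenic peak near GRIK2, in no group, had 7.93 TPM in the male and 33.9, 390 and 251 TPM in the females.

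Genes with several starts showed where along the gene the male differed. Of 576 named genes with at least 2 promoter peaks of 10 TPM or more, 8 had promoters whose differences lay 2.5 log2 units or more apart with at least 1 of them beyond the range, a margin set after the values were seen. WAPL, which releases cohesin from chromosomes, had 3.69 TPM in the male and 24.3, 25.3 and 32.0 TPM in the females at one start (-2.58 log2, limma adjusted p = 0.113). At its stronger start the male had 99.0 TPM and the females 96.2, 104 and 96.3 TPM, so the difference lay at the weaker start. NT5E, the ectoenzyme CD73 of mesenchymal cells, went in opposite directions at its pair of promoters, with 8.11 TPM against 22.7, 19.9 and 24.1 TPM at the weaker and 103 TPM against 62.0, 23.0 and 34.2 TPM at the stronger. SASH1, EML1, LMO7 and FDX2 were the others, beside ADK and SFXN2.

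RNA-seq of 2 zebra finch cultures, 1 labelled male and 1 labelled female, gave a second reading with no replicate. The culture codes in their titles are swapped against those of the CAGE libraries, so the sex label was used. It was checked on the W genes with CAGE peaks, of which 67 of 85 had the higher FPKM in the library labelled female, with medians of 1.15 and 0.0115 FPKM. Across 8226 genes, the log2(FPKM + 1) of the library labelled male had its highest Pearson correlation with the male CAGE library (0.72, against 0.62 to 0.64 with the females). The library labelled female had its highest with female 1 (0.71, against 0.63 to 0.64 with the other 3). Values across genes are not independent, and no p is given. By the study's methods the RNA-seq cultures were among those used for CAGE, so the 2 libraries are not counted as further embryos.

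Set beside the CAGE values, the RNA of the 2 cultures was as follows. PRG4 stood at 54.7 FPKM in the library labelled male and 0.340 FPKM in the library labelled female, PDGFRA at 69.8 and 0.4995 FPKM, and IGFBP4 at 82.0 and 1.01 FPKM. These 3 were high in the male CAGE library and lowest or near lowest in female 1. ACTC1 stood at 1.38 and 71.2 FPKM, COL26A1 at 2.35 and 90.1 FPKM, IBSP at 6.01 and 753 FPKM, and ADAMTSL2 at 16.2 and 147 FPKM, all low in the male CAGE library. The median RNA difference of the amino acid stress list was -0.91 on the log2(FPKM + 1) scale, of the contractile list -0.79 and of the ribosomal protein list 0.52, against -0.02 over all genes. It was -1.65 for cartilage, -2.20 for bone and tendon and -0.38 for the endoplasmic reticulum list. Other lists had RNA medians further from their CAGE medians. The mitosis list had -0.09 in RNA and 0.66 in CAGE, the respiratory chain 0.07 and 0.30, cholesterol synthesis 0.27 and 0.74, and skeletal muscle -0.62 and -2.19. In every list the RNA median set the male against 1 female culture, and the CAGE median set it against the mean of 3 females. As median departures from the mean of the CAGE libraries, the male and female 1 stood at 0.50 and 0.68 for mitosis. They stood at 0.22 and 0.04 for the respiratory chain, 0.56 and 0.15 for cholesterol synthesis and -1.64 and -0.30 for skeletal muscle. The part of this in the gaps between RNA and CAGE was not tested. CHAC1 stood at 2.59 and 19.5 FPKM and ACTA2 at 205 and 688 FPKM.

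Several peaks far apart in CAGE were level in RNA. KHDRBS3 stood at 13.7 FPKM in the library labelled male and 17.2 FPKM in the library labelled female, MED12 at 16.5 and 15.8 FPKM, and SFXN2 at 4.20 and 4.51 FPKM. The last 2 genes have another start with level tags. FCSK, whose peak lies 880 bases before the gene, stood at 1.55 FPKM in the library labelled male and 1.23 FPKM in the library labelled female. CERS1 had almost no RNA in either, at 0.0145 and 0.0269 FPKM. ADK (21.6 and 63.2 FPKM) was lower in the library labelled male in RNA too. HACD2 was as well (10.3 and 21.1 FPKM), but the peak named for it lies in an exon of MYLK. The RNA of MYLK stood at 7.35 and 50.0 FPKM. The called LOC100226365 had 6.72 and 7.07 FPKM and LOC100224417 had 1.77 and 2.30 FPKM, so neither showed in RNA the difference seen at its CAGE peak. The same held for LOC100225057 (4.66 and 5.89 FPKM) and LOC116808957 (2.25 and 3.23 FPKM). LOC100224416 was level in RNA too (2.18 and 2.15 FPKM), but its called peak is intergenic. The promoter peak of that gene had 563 TPM in the male against 533, 445 and 312 TPM in the females. LOC116807702 (0 and 0.106 FPKM) and LOC116807671 (0.0859 and 0.0334 FPKM) had almost no RNA in either library. ADAMTSL2, given above, was the called gene whose RNA differed as its peak did. For the 31 LOC genes of the stretch on NC_044999.1 the median was 1.70 and 1.81 FPKM, and 26 of them were under 10 FPKM in both libraries, although their 37 CAGE peaks averaged between 26.1 and 1285 TPM. The RNA-seq libraries were made from polyadenylated RNA and the CAGE libraries from total RNA.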

How the data were processed

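The deposited CAGE table holds 1 value a peak and library, which the authors gave in TPM, which is RPM scaling by all mapped tags, for peaks they kept from 10 TPM, with reads trimmed by Trimmomatic 0.38 and mapped by BWA 0.7.10-r789, and peaks assigned to genes by ChIPseeker 1.32.0. The build named in the study's methods is bTaeGut2.pat.W.v2, and coordinates are printed as deposited. Every TPM value was a whole multiple of 1 tag within 0.05 tag, so tags were recovered. The deposited RNA-seq table gives counts, which were used for totals only (90711409 labelled female, 80865507 labelled male), and FPKM values by the authors. Limma 3.58.1 with a mean-variance trend was fitted to log2(TPM + 1) of all peaks, with the prior spread worth 2.83 degrees of freedom against 2 residual. edgeR 4.0.16 on tags was an alternative, and the scripts were checked on simulated data. Log2 differences of low peaks are understated by the pseudocount of 1, while printed folds are ratios of TPM without it. The count floor is 3 tags (0.277 TPM in the male), which covers counting error only. Each library is from a separate embryo per the study's methods, and p-values measure only the spread between the 3 female libraries. Genes were named by rule: every limma call, the 15 largest differences each way of at least 10 TPM outside the female range, up to 4 genes a list beyond it by 1 log2 unit (2 by level where none was), and the 8 widest female ranges. Of the genes the rule picks, 1 is left out and not reported here. Other genes were chosen after their values were seen. The members, lists and tests were chosen with earlier results of these data known. Alternatives were pseudocounts of 0.1 and 5, TMM scaling, subsets of peaks, sums per gene, other thresholds and each female left out. Chromosome and peak class values were not repeated under them.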

Additional observations from a re-analysis of the deposited data

How the results depend on the processing

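Counts of peaks moved with the settings. Limma calls higher and lower in the male were 0 and 1 with a pseudocount of 5, 0 and 0 by limma without a trend (233 and 354 at an unadjusted p under 0.05), 0 and 0 by edgeR (234 and 352 unadjusted) and 2 and 13 at an adjusted p under 0.1. The single higher call was 0 among peaks of at least 10 TPM on average, among promoter peaks and with the peaks of a gene summed. With each female left out in turn the calls ran from 0 to 0 higher and from 0 to 11 lower: there were 0 and 11 without female 1, 0 and 0 without female 2 (257 and 397 unadjusted) and 0 and 0 without female 3 (212 and 283 unadjusted). Over all alternatives the adjusted p of the called peaks ran from 0.0150 to 0.614. Peaks above the female range numbered 114 at a mean of at least 10 TPM, 479 at a margin of 0.58 log2 units and 54 at 2, and from 305 to 367 with a female left out. Peaks below it numbered 151 with a pseudocount of 5, 690 and 72 at those margins, and from 466 to 542 with a female left out, because a range over fewer females is narrower. Genes of the lists beyond the range, 65 in all, numbered 43 with a pseudocount of 5 and from 89 to 124 with a female left out. The mean of the pair medians, 0.39 with the male and 0.38 among females, was 0.33 and 0.32 with a pseudocount of 5, 0.35 with the male at a mean of at least 10 TPM, and ran from 0.38 to 0.40 and from 0.35 to 0.43 with a female left out. Of 186 list medians recomputed, 20 changed sign, and of 687 differences of named peaks 7 did. No paired analysis was possible because there is 1 male library. No 4 libraries form a group, so none could be screened for a value far from the others. With 1 male embryo, no value here separates sex from embryo, and at this depth a peak under 3 tags cannot be told from none.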
